A study of Mus musculus with 6 samples.

Results

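Endothelial adhesion molecules are the proteins by which endothelial cells hold to each other and catch passing leukocytes. The 10 genes described here were chosen by symbol: Pecam1, Cdh5, Esam, Jam2, Emcn, Icam2, Icam1, Vcam1, Sele and Selp. All 10 are listed among the 55487 genes of the deposited table. Of the 20459 genes that had at least 10 reads in at least 3 libraries and were therefore tested, 8 are members, and Sele and Selp fell below that minimum.

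RNA was sequenced from vascular endothelial cells (VECs) of the mouse retina at P7.5. The 3 control libraries came from tdTomato FL/+;Pdgf-icreER pups. In the 3 mutant libraries, called Bmal1;CKO, the pups were in addition Bmal1 FL/FL. Every pup of both groups carried the Cre transgene and the tdTomato reporter, was on a C57BL/6J background, was given tamoxifen between P0.5 and P2.5, and was collected at noon. Pdgf-icreER expresses a tamoxifen-inducible Cre, with GFP, from the Pdgfb promoter, so that recombination and sorting both depend on cells in which that promoter is active, and cells positive for both GFP and tdTomato were collected by flow cytometry. The comparison asks how loss of Bmal1, a transcription factor of the circadian clock, in endothelial cells alters their transcripts.

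Junctional adhesion molecules (Pecam1, Cdh5, Esam and Jam2) join neighbouring endothelial cells and set how easily solutes and leukocytes pass between them. Endomucin, encoded by Emcn, is a sialomucin of the luminal surface that hinders leukocyte contact. The selectins Sele and Selp let leukocytes roll, and the immunoglobulin-type ligands Icam1, Icam2 and Vcam1 bind leukocyte integrins so that the cells stop and cross the wall. Icam1, Vcam1, Sele and Selp are known for their induction by inflammatory cytokines through NF-kB, whereas the junctional molecules, Emcn and Icam2 are made by resting endothelium.

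The libraries held 71145068 to 104017800 reads on genes. The 14 endothelial markers, none of them a member, had summed normalized read counts of 184022 to 379597 in control and 115001 to 243162 in Bmal1;CKO, and all 14 were detected. The 10 microglia markers, genes of the resident macrophages of the retina, were also all detected, at sums of 1457307 to 4313189 and 2111903 to 4207927, above the endothelial sum in every library. The 10 rod markers were above it in every library too, at sums of 693445 to 816415 in control and 536462 to 854068 in Bmal1;CKO. Control library 1 stood apart, with the highest sums of the endothelial and microglia markers. It had the lowest sums of the pericyte markers (2637, against 4185 to 46180 in the other libraries) and astrocyte markers (424, against 1234 to 6060). It also had the fewest genes with a read (21598, against 22142 to 27904). The Bmal1 transcript (listed as Arntl) had normalized counts of 1700, 3489 and 2928 in control libraries 1 to 3 and 1779, 2747 and 2415 in Bmal1;CKO libraries 4 to 6, and the groups overlapped (log2 fold change -0.19, SE 0.36, adjusted p = 0.924). These counts cover the whole gene and so do not test the deletion of the floxed exon. In bulk libraries of sorted cells, fewer endothelial cells and less RNA per endothelial cell cannot be told apart.

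Across the genome, limma-trend called 0 genes between Bmal1;CKO and control at an adjusted p under 0.05 (0.00% of 20459), and 0 of the 8 tested members were among them. At an unadjusted p under 0.05 it called 1007 genes (4.92%) and again 0 members. edgeR and limma-voom called 0 genes at an adjusted p under 0.05, and DESeq2 called 67 (0.327%). At an unadjusted p under 0.05 the shares were 3.80% for edgeR with TMM scaling, 3.87% for edgeR with DESeq2 size factors, 5.92% for DESeq2 and 4.87% for limma-voom, and no member passed with any of these tools. The fitted change was below 0 for 7 of the 8 members, against 43.4% of all genes tested, and above 0 for Icam1. The median log2 fold change of the 8 members was -0.33, whereas that of all genes tested was 0.11. The 14 endothelial markers, which are not members, moved the same way, with 13 below and 1 above 0 and a median of -0.43. Without control library 1 the members were again 7 below and 1 above 0, with a median of -0.13, while the endothelial markers were 8 below and 6 above 0, with a median of -0.049. Without Bmal1;CKO library 5 the members were 6 below and 2 above 0, with a median of -0.14, and the endothelial markers 8 below and 6 above, with a median of -0.058. The groups overlapped for all 8 members, while they did not overlap for 11.2% of all genes tested.

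**Figure D1:**
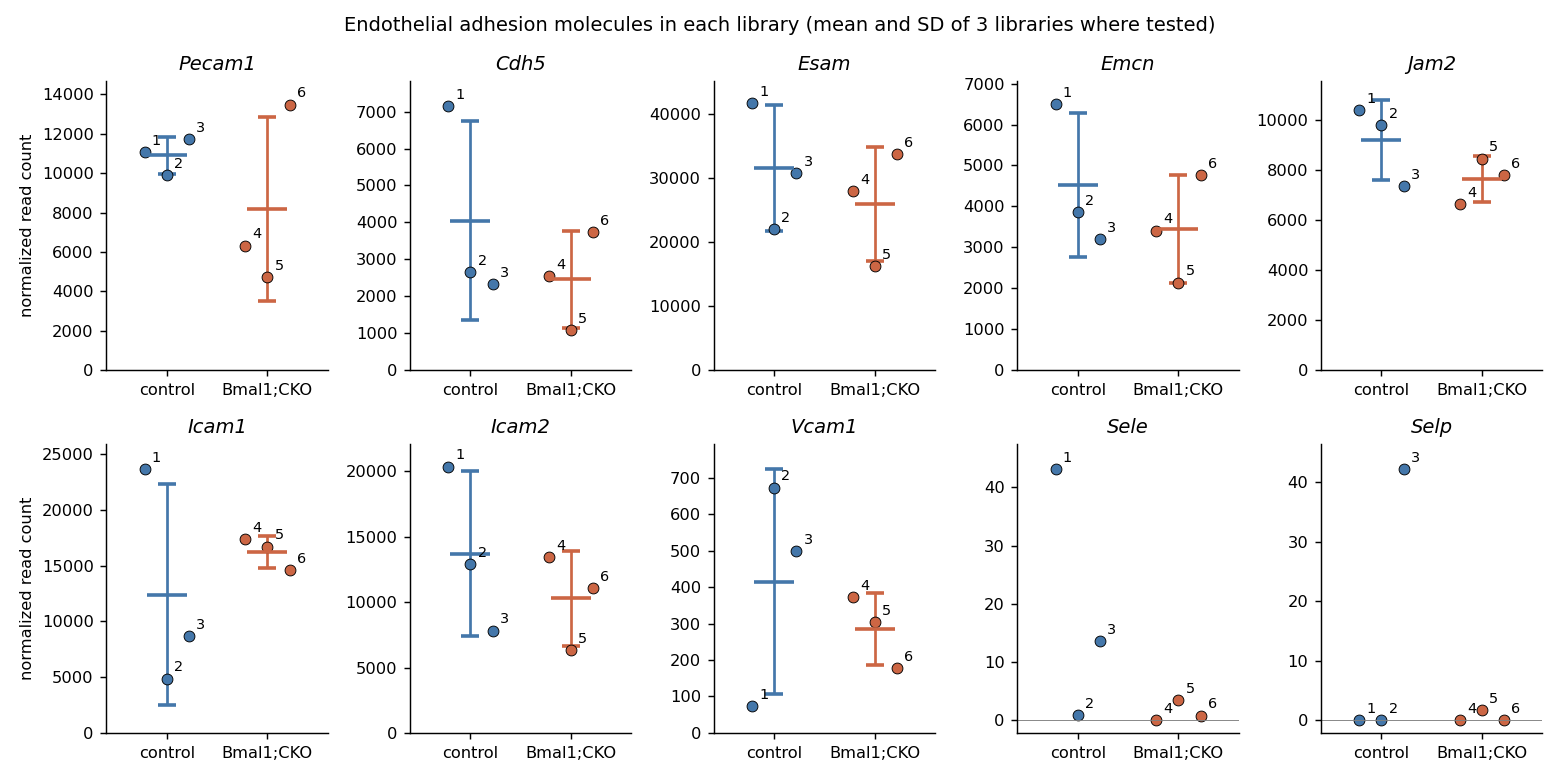
Normalized read count (vertical axis, from 0 in the gene panels that were tested) of the 10 adhesion molecules in each library, with control libraries 1 to 3 in blue and Bmal1;CKO libraries 4 to 6 in orange. Crossbars give the mean and SD of 3 libraries for the 8 tested genes, and in every panel the points of the groups overlap.

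Pecam1 (ENSMUSG00000020717, GRCm38 chr11:106654217-106750628, minus strand) encodes CD31, which binds itself across the junction. Its normalized read counts were 11067, 9898 and 11725 in control libraries 1 to 3 and 6318, 4723 and 13475 in Bmal1;CKO libraries 4 to 6. The control libraries lay close together, whereas Bmal1;CKO libraries 4 and 5 lay below all of them and library 6 above. The means were 10897 ± 926 in control and 8172 ± 4661 in Bmal1;CKO (SD, n = 3), and the fitted difference was -0.56 on the log2 scale (SE 0.39, 95% interval -1.46 to 0.35, adjusted p = 0.883). The Bmal1;CKO libraries moved this difference in opposite directions. Without library 6 it was -0.99, with an unadjusted p of 0.0120 by limma-trend and an adjusted p of 0.988, and without library 5 it was -0.24, with an adjusted p of 0.999. In the fit without library 6, 686 of all 20459 genes were at an unadjusted p under 0.05.

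Cdh5 (ENSMUSG00000031871, GRCm38 chr8:104101625-104144511, plus strand) encodes VE-cadherin, the cadherin of endothelial adherens junctions. Its counts were 7151, 2664 and 2325 in control and 2551, 1089 and 3730 in Bmal1;CKO. Control library 1 was the highest of all and Bmal1;CKO library 5 the lowest. The means of 4047 ± 2694 and 2457 ± 1323 gave a log2 fold change of -0.70 (SE 0.58, 95% interval -2.05 to 0.65, adjusted p = 0.883), which became -0.19 without control library 1 and -0.20 without Bmal1;CKO library 5, and -1.09 without Bmal1;CKO library 6.

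Esam (ENSMUSG00000001946, GRCm38 chr9:37528078-37538319, plus strand) encodes an immunoglobulin-type molecule of endothelial tight junctions, and Jam2 (ENSMUSG00000053062, GRCm38 chr16:84774123-84825928, plus strand) encodes JAM-B, a ligand of JAM-C. Esam had counts of 41691, 22064 and 30737 in control and 27907, 16294 and 33668 in Bmal1;CKO. Its lowest value was again in Bmal1;CKO library 5, and the log2 fold change was -0.30 (SE 0.37, 95% interval -1.15 to 0.56, adjusted p = 0.895). Without that library it was 0.0089, without control library 1 it was -0.069, and without control library 2 it was -0.53. Jam2 had counts of 10394, 9803 and 7363 in control and 6630, 8456 and 7795 in Bmal1;CKO. It was the steadiest member, with its highest library 1.57-fold over its lowest, and its change of -0.26 had the narrowest interval, -0.83 to 0.31 (SE 0.24, adjusted p = 0.883). It was -0.16 without control library 1 or Bmal1;CKO library 4 and -0.41 without control library 3. As a fold of the control level, that interval ran from 0.563 to 1.24.

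Emcn (ENSMUSG00000054690, GRCm38 chr3:137341067-137432185, plus strand) is best known from capillary and venous endothelium. Its counts were 6508, 3857 and 3208 in control and 3412, 2141 and 4773 in Bmal1;CKO. Libraries 1 and 6 were high and library 5 was low, as for Cdh5. The log2 fold change of Emcn was -0.40 (SE 0.40, 95% interval -1.32 to 0.52, adjusted p = 0.884). It was -0.11 without control library 1 and -0.098 without Bmal1;CKO library 5. It was larger in size, at -0.62, without control library 3 and, at -0.68, without Bmal1;CKO library 6.

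Icam2 (ENSMUSG00000001029, GRCm38 chr11:106377656-106388075, minus strand) encodes the integrin ligand of resting endothelium, which binds the leukocyte integrin LFA-1. Its counts were 20357, 12930 and 7829 in control and 13457, 6355 and 11080 in Bmal1;CKO. The fitted log2 fold change of Icam2 was -0.37 (SE 0.42, 95% interval -1.36 to 0.61, adjusted p = 0.888). It was -0.035 without control library 1 and -0.060 without Bmal1;CKO library 5, whereas leaving out control library 3 gave -0.72 and leaving out Bmal1;CKO library 4 gave -0.60. Control library 1 was the highest and Bmal1;CKO library 5 the lowest, and the remaining libraries of the groups were interleaved.

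Icam1 (ENSMUSG00000037405, GRCm38 chr9:21015985-21028817, plus strand) is the inducible ligand of LFA-1 and Mac-1, and macrophages and microglia express it as well as endothelium. Its counts were 23625, 4875 and 8680 in control and 17350, 16688 and 14579 in Bmal1;CKO. The Bmal1;CKO libraries were alike, at 16206 ± 1447 (SD, n = 3), and lay above control libraries 2 and 3 and below control library 1, so that the control mean of 12393 had an SD of 9911. The log2 fold change was 0.69 (SE 0.53, 95% interval -0.53 to 1.92, adjusted p = 0.883). Without control library 1 it was 1.31 (SE 0.31, unadjusted p = 0.00248, adjusted p = 0.477 by limma-trend), and without control library 2 it was 0.17. In the fit without control library 1, 1769 of all 20459 genes were at an unadjusted p under 0.05. The summed microglia markers over the libraries in the same order were 4313189, 1457307 and 1764403 in control and 4207927, 2849807 and 2111903 in Bmal1;CKO, with all 10 markers detected and 9 of 10 above 0 by fitted change (median log2 fold change 0.41, between 0.078 without control library 2 and 0.82 without control library 1), and their part in the Icam1 values was not tested.

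Vcam1 (ENSMUSG00000027962, GRCm38 chr3:116109949-116129688, minus strand) encodes the ligand of the integrin VLA-4 and was the scarcest tested member. Its normalized counts were 73.8, 673 and 499 in control and 373, 303 and 177 in Bmal1;CKO. The lowest library held 60 reads and the highest 725. Control library 1, highest for Cdh5, Esam, Emcn, Jam2, Icam1 and Icam2, was the lowest for Vcam1. The log2 fold change was -0.11 with the widest interval of the members, -2.22 to 2.01 (SE 0.91, adjusted p = 0.987), and it was -1.09 without control library 1 and 0.50 without control library 2. Vcam1 is also made by cells other than endothelium, and of the 5 astrocyte markers only 3 were tested (summed level 424, 2025 and 6060 in control and 2447, 2293 and 1234 in Bmal1;CKO, with Aqp4 at 0 in 4 libraries), and their part in the Vcam1 values was not tested.

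**Figure D2:**
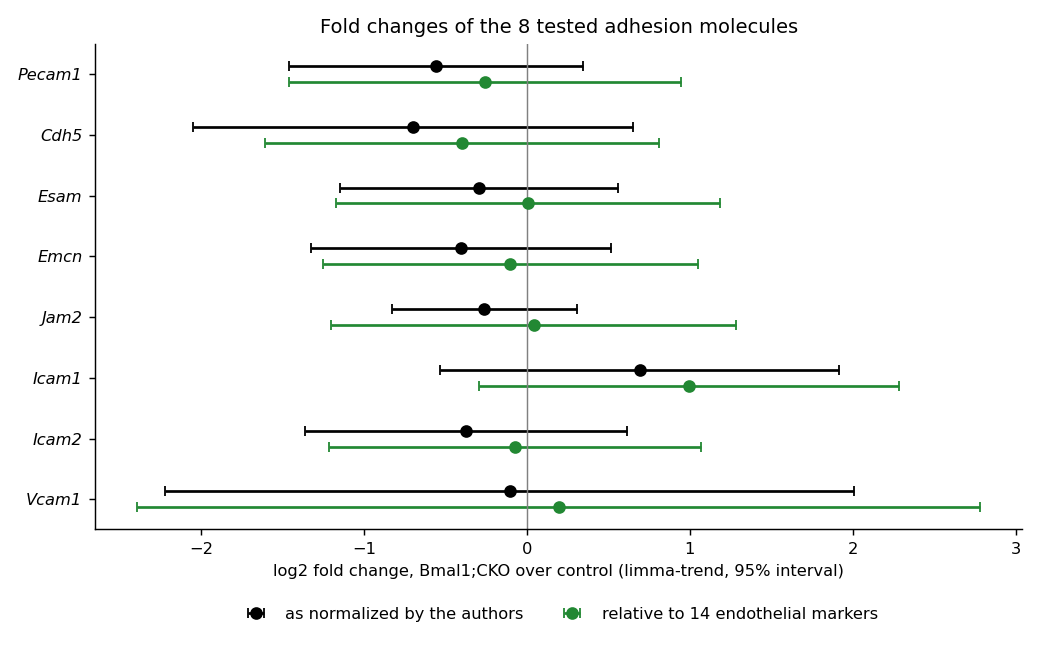
Log2 fold change of Bmal1;CKO over control (horizontal axis) with its 95% interval for the 8 tested adhesion molecules, from limma-trend on the normalized counts (black) and after subtraction of the mean log2 level of 14 endothelial markers in each library (green). Every interval of both kinds includes 0, and the widest belongs to Vcam1.

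The selectins were close to absent. Sele (ENSMUSG00000026582, GRCm38 chr1:164048234-164057677, plus strand), which encodes E-selectin, had 35, 1 and 19 reads in control libraries 1 to 3 and 0, 4 and 1 reads in Bmal1;CKO libraries 4 to 6. The groups overlapped at these counts, and the 0 reads of library 4 allow a normalized count of up to 4.22. Selp (ENSMUSG00000026580, GRCm38 chr1:164115264-164150026, plus strand) encodes P-selectin, which endothelial cells and platelets store in granules. It had 0, 0 and 59 reads in control and 0, 2 and 0 in Bmal1;CKO, so that nearly all of its reads were in control library 3. The 6 platelet markers, of which 4 were tested, summed to 1050 to 2250 in control and 848 to 1903 in Bmal1;CKO. Within control that sum was lowest in library 3. Ppbp, a platelet chemokine and 1 of these 6 markers, went the other way, with 78 reads in control library 3 and 0 or 1 in the other libraries. The part of platelets in the Selp reads was not tested.

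The inducible members therefore spanned a wide range of levels in the same libraries, and the sequence before their start sites is shown for the 4 members with a promoter entry in RefSeq (GRCm38.p6). Each line gives the 250 bases before the annotated start, 5′ to 3′ on the plus strand, on which all 4 genes lie, with capitals marking a match to the NF-kB-type motif GGNNNTTCC read on either strand. Icam1, Sele and Selp stand for the cytokine-induced genes, and Emcn for a gene of resting endothelium.
Icam1, chr9:21015690-21015939: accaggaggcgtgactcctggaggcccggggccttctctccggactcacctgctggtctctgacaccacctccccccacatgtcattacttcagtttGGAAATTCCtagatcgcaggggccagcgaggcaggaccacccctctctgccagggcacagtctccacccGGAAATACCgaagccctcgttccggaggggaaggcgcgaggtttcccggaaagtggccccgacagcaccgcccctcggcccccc
Sele, chr1:164047984-164048233: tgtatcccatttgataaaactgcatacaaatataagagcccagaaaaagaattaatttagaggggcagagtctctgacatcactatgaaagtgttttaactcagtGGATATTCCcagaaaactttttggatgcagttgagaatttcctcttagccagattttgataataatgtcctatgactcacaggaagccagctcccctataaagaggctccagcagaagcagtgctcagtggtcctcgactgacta
Selp, chr1:164115014-164115263: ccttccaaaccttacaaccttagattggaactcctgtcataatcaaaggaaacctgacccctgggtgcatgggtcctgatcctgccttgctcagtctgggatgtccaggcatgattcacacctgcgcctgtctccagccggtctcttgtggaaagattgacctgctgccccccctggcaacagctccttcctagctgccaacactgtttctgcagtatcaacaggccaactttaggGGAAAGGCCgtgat
Emcn, chr3:137340828-137341077: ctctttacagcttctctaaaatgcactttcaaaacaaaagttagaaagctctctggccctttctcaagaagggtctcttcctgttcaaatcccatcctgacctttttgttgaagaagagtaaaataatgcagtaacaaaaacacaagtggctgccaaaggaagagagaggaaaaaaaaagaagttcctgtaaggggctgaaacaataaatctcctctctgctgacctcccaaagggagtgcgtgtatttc

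Icam1 held 2 matches, 153 to 145 and 84 to 76 bases before the start. Sele held 1 match, 145 to 137 bases before it, and Selp held 1, 14 to 6 bases before it. Emcn held 0. Of all 32851 promoter windows of the same length in the table, 15.7% held at least 1 match, and a match of these letters is a description of the sequence only. The E-box CACGTG, the motif that Bmal1 binds together with Clock, was in none of the 4 windows and in 6.02% of all windows. GC content was 65.2% in the Icam1 window, 53.6% in that of Selp, 40.8% in that of Emcn and 40.4% in that of Sele.

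Levels per kilobase of exon allow the members to be ordered. Over all 6 libraries, the mean normalized count per kilobase was 10020 for Esam, 6303 for Icam2, 3280 for Icam1, 1531 for Pecam1, 1391 for Jam2, 774 for Cdh5, 736 for Emcn, 39.4 for Vcam1, 3.54 for Sele and 1.66 for Selp. Esam was above Icam2 in 6 of 6 libraries, and Jam2 was above Cdh5 in 6 of 6. Most neighbours in that order had overlapping ranges over the libraries, and the one gap without overlap lay between Emcn, whose lowest library had 396 per kilobase, and Vcam1, whose highest had 75.8. The order within control was the same as over all libraries, and within Bmal1;CKO it differed only in Emcn standing above Cdh5. In Bmal1;CKO, Icam1 at 3344 to 3979 per kilobase stood clear of Pecam1 at 758 to 2164, which it did not in control, where control library 2 had 1118 for Icam1 and 1589 for Pecam1.

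The next question was how much of the spread of each member over the libraries moved with the endothelial markers as a whole. The geometric mean of the 14 markers was 10133, 5108 and 4110 in control and 4944, 3130 and 7348 in Bmal1;CKO. Emcn followed it most closely. Its level was 64.2%, 75.5% and 78.1% of the endothelial mean in control and 69.0%, 68.4% and 65.0% in Bmal1;CKO, so that the 3.04-fold range of Emcn over the libraries became 1.22-fold. The range of Cdh5 narrowed from 6.56-fold to 2.03-fold, that of Icam2 from 3.20-fold to 1.81-fold and that of Esam from 2.56-fold to 1.82-fold. Pecam1 changed little, from 2.85-fold to 2.61-fold. Jam2 widened from 1.57-fold to 2.63-fold and Icam1 from 4.85-fold to 5.58-fold. Vcam1, whose counts as printed ranged 9.11-fold, reached 17.9-fold.

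Each member was divided in the same way by 5 other marker lists, of microglia, pericytes, astrocytes, Müller glia and rods. The range of Icam1 was smallest with the microglia markers, at 1.95-fold, and these also narrowed that of Cdh5, to 4.73-fold, and hardly changed that of Esam, at 2.51-fold. Jam2 ranged 1.77-fold with the rod markers, still wider than as measured. The range of Vcam1 was smallest with the astrocyte markers, at 3.20-fold, and 6.02-fold with the Müller glia markers. With the astrocyte markers Pecam1 ranged 15.7-fold, Emcn 21.6-fold and Cdh5 43.9-fold, and every other tested member ranged more widely than Vcam1. These are descriptions over 6 libraries that share their normalization. The lowest values of Vcam1 and of the astrocyte, pericyte and Müller glia markers were all in control library 1.

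**Figure D3:**
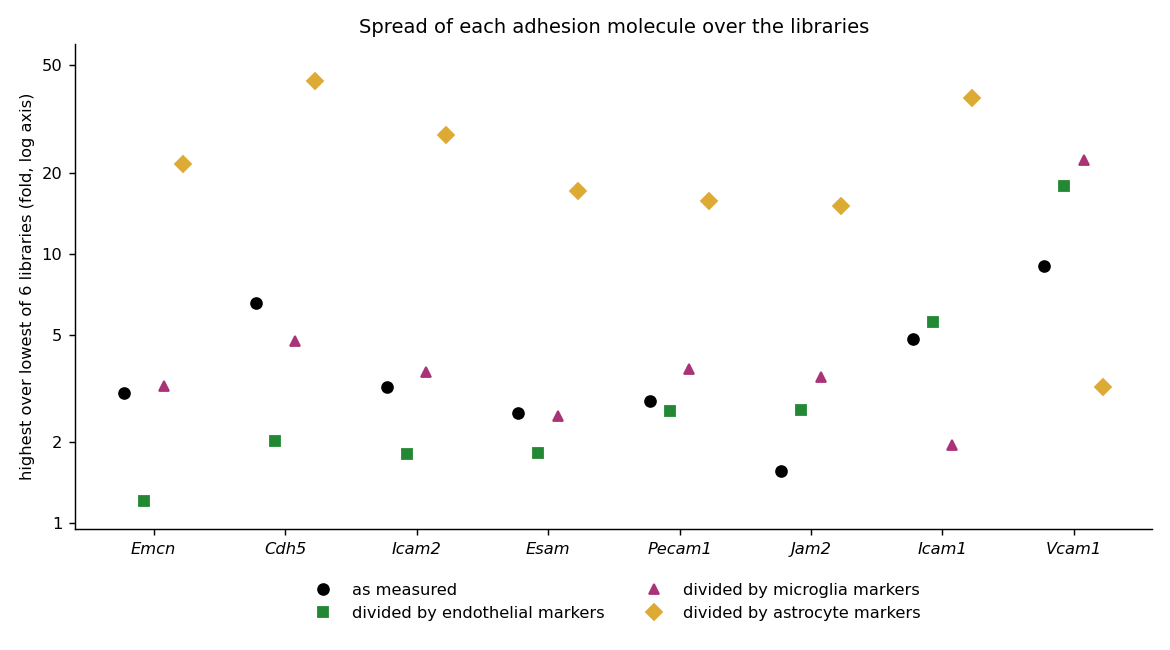
Highest over lowest level of each tested adhesion molecule among the 6 libraries (vertical axis, fold, log scale), as measured (black circles) and after division by the mean level of the endothelial (green squares), microglia (purple triangles) or astrocyte markers (yellow diamonds) of the same library. Emcn is lowest with the endothelial markers at 1.22-fold, Icam1 with the microglia markers at 1.95-fold and Vcam1 with the astrocyte markers at 3.20-fold.

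**Figure D4:**
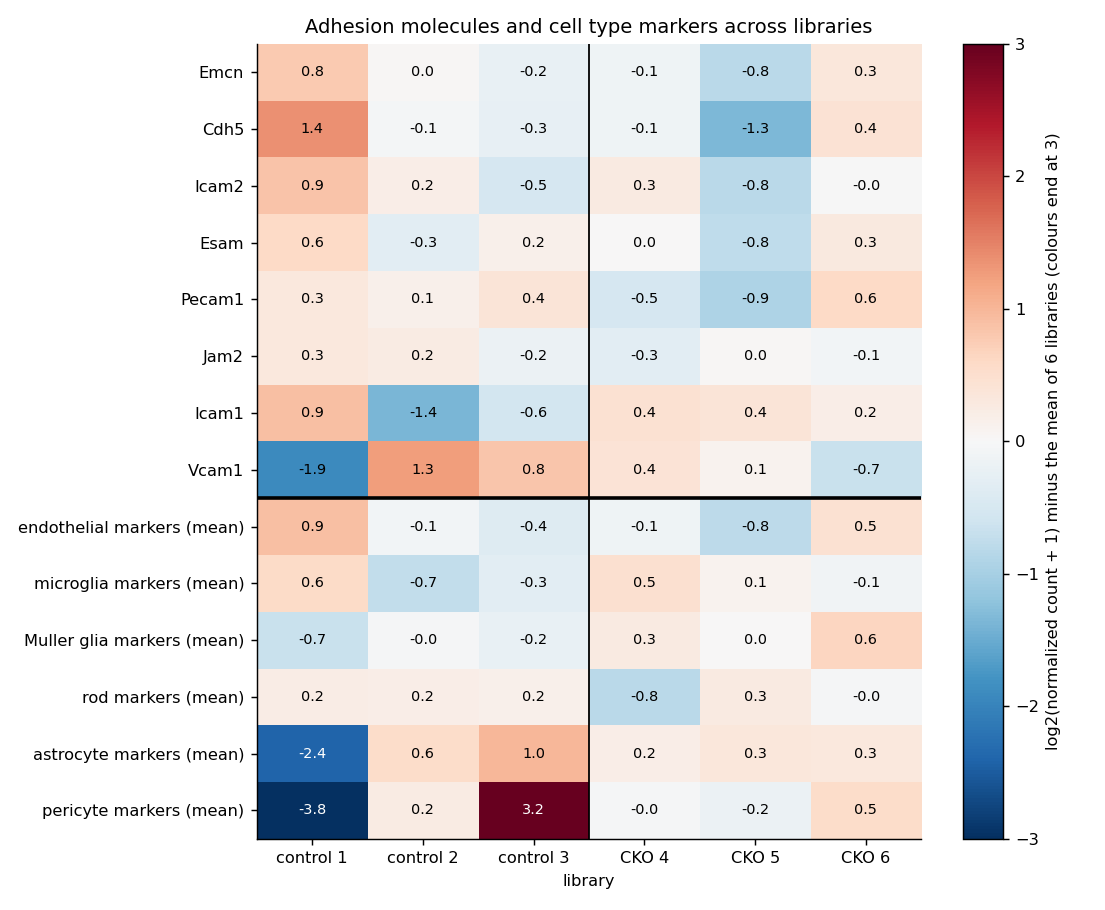
Log2 level of each tested adhesion molecule (upper rows) and mean log2 level of each marker list (lower rows) in the 6 libraries (columns), each as the difference from its mean over the libraries. Emcn, Cdh5, Icam2 and Esam are low in CKO 5 as the endothelial markers are, and Icam1 is low in control 2 and 3 as the microglia markers are. Vcam1 is lowest in control 1 as the astrocyte, pericyte and Müller glia markers are.

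Relative to the endothelial markers, the 8 members split into 4 above and 4 below 0, with a median log2 fold change of -0.033, while the median of all genes tested was 0.41 and 74.2% of them were above 0. At an adjusted p under 0.05, 1 gene was called (0.00489%) and 0 members, and at an unadjusted p under 0.05, 467 genes (2.28%) and 0 members. These values depended on single libraries. Without control library 1, 52 genes were called, the members were 1 above and 7 below 0, and the median of all genes was -0.079. Without Bmal1;CKO library 5, 0 genes were called, the members were again 1 above and 7 below 0, and that median was 0.081. The largest difference among the members was that of Icam1, 0.99 (SE 0.60, 95% interval -0.29 to 2.28, adjusted p = 1.00). Relative to the microglia markers, a reference added after the profile of Icam1 had been seen, it was 0.37 (SE 0.36, adjusted p = 0.973) and the groups overlapped under both. Cdh5 was the one member whose groups then did not overlap, as 4.22% of all genes tested did not. It was at 70.6%, 52.2% and 56.6% of the endothelial mean in control and at 51.6%, 34.8% and 50.8% in Bmal1;CKO. That difference of -0.40 had an SE of 0.56 and a 95% interval of -1.61 to 0.81 (adjusted p = 1.00), and the exact two-sided permutation test gave p = 0.1, the smallest that 3 libraries against 3 allow.

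Ratios between pairs of members do not depend on how a library was scaled. They can still depend on the mix of cells in a library, as macrophages and microglia express Icam1 as well as endothelium. Of the 28 ratios between the 8 tested members, taken per kilobase, the groups did not overlap in 2. Both were among the 7 ratios that contain Icam1, and in the rest of those 7 the groups overlapped. For single genes as measured, the groups did not overlap for 11.2% of all genes tested, which is a share of an unlike measure. The 28 ratios come from only 8 genes and are not independent, and no share was computed for ratios between other genes. The ratio of Icam1 to Icam2, the inducible over the resting ligand of LFA-1, was 0.507, 0.165 and 0.484 in control and 0.563, 1.15 and 0.575 in Bmal1;CKO. The ratio of Cdh5 to Icam1 was 0.314, 0.567 and 0.278 in control and 0.153, 0.0677 and 0.265 in Bmal1;CKO. In the group means of these 2 ratios, Icam1 was higher in Bmal1;CKO by 1.07 relative to Icam2 and by 1.39 relative to Cdh5, on the log2 scale. Each exact two-sided permutation p was 0.1, before any adjustment over the 28 ratios, and the nearest libraries of the groups lay close together. Over the libraries, Icam1 ranged 1.95-fold when divided by the microglia markers and 5.58-fold when divided by the endothelial markers. In the same order, Icam2 ranged 3.64-fold and 1.81-fold, and Cdh5 4.73-fold and 2.03-fold. The part of the cell mix in these ratios was not tested.

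The genes whose profiles over the 6 libraries lay closest to each member were found among 15602 genes with a mean normalized count of at least 100, by the root mean square difference of centred log2 levels. For Emcn they were Flt1 (0.118), which encodes VEGF receptor 1 and is one of the 14 endothelial markers, Sptan1 (0.128) and Nos3 (0.133), the endothelial nitric oxide synthase. For Cdh5 they were Adamtsl4 (0.116), Plxnd1 (0.142), which encodes a semaphorin receptor, and Sema6a (0.160). For Icam1 they were Il6ra (0.092), a subunit of the interleukin 6 receptor, Fyb (0.114), an adaptor protein of haematopoietic cells, and Pld4 (0.146), a phospholipase family member known from microglia.

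The other members had close profiles too. Pecam1 lay nearest to Foxc1 (0.051), a forkhead transcription factor, Pde8a (0.124) and the processed pseudogene Gm7378 (0.133). Esam lay nearest to Mfsd13a (0.104), Rsu1 (0.119) and N4bp3 (0.125), Icam2 to Csrp2 (0.120), Npr1 (0.130) and Naf1 (0.136), and Jam2 to Celf2 (0.061), Mmgt2 (0.068) and Gripap1 (0.070). Vcam1 had the most distant neighbours, Cyp39a1 (0.257), 1500015A07Rik (0.258) and Gm20632 (0.279). Among the members themselves, Esam and Emcn were the closest pair (0.240), and Icam1 was 0.734 or more from every other tested member and Vcam1 1.15 or more.

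**Figure D5:**
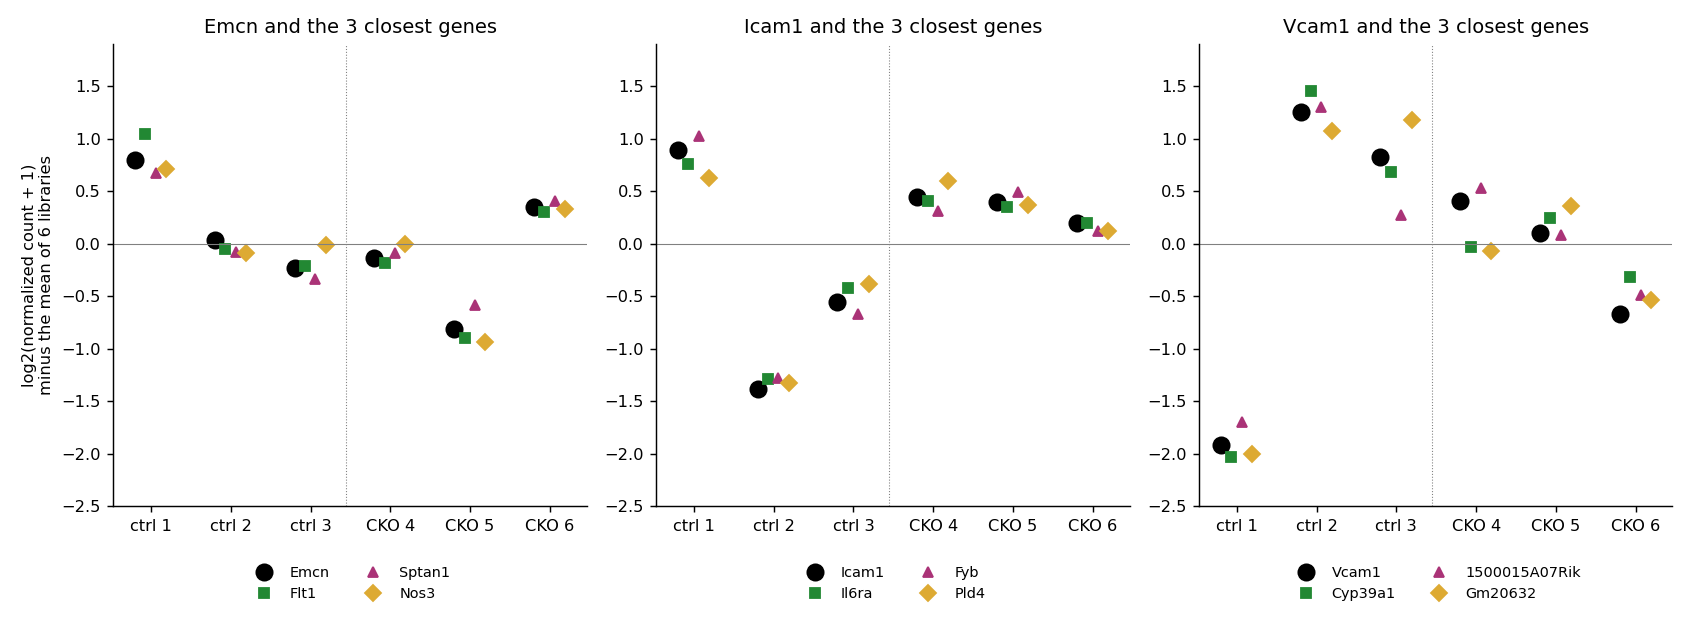
Log2 level of Emcn, Icam1 and Vcam1 (black circles) and of the 3 genes with the closest profile to each (coloured symbols) in control libraries 1 to 3 and Bmal1;CKO libraries 4 to 6, as the difference from the mean over the libraries (vertical axis). Emcn and its neighbours are lowest in CKO 5, Icam1 and its neighbours in control 2, and Vcam1 and its neighbours in control 1.

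The genes that act with the members were described as lists. Of the 16 junction partners, the catenins, tight junction proteins and related molecules that meet Cdh5, Esam and Jam2 at the junction, all were tested, 6 were above and 10 below 0 by fitted change, with a median log2 fold change of -0.25, and 0 passed an adjusted or unadjusted p of 0.05. Without control library 3 the split was 8 and 8, with a median of -0.081. In that fit 3 partners were at an unadjusted p under 0.05 by limma-trend, as were 2444 of all 20459 genes. With any other library left out, the median lay between -0.39 (without Bmal1;CKO library 6) and -0.10 (without library 5). Cldn5, the main claudin of endothelial tight junctions, had the highest level of the list, with normalized counts of 201094, 110074 and 87590 in control and 112962, 60099 and 116942 in Bmal1;CKO. Its libraries were ordered as those of Emcn were in control. The groups overlapped for every one of the 16 partners except F11r, which encodes JAM-A and was named after its values were seen. Across all genes tested, the groups did not overlap for 11.2%. F11r had 18706, 16609 and 21580 in control and 24344, 23521 and 23027 in Bmal1;CKO (log2 fold change 0.33, SE 0.22, adjusted p = 0.883 by limma-trend).

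Of the 8 sialomucins and their cytoskeletal linkers, 7 were tested, 2 above and 5 below 0, with a median of -0.12. Without control library 3 or Bmal1;CKO library 5 the split was 4 and 3, with medians of 0.052 and 0.080. The linker radixin, Rdx, which ties membrane proteins to actin, passed a threshold of 0.05 before adjustment (unadjusted p = 0.0216, adjusted p = 0.883 by limma-trend). It had 6055, 6189 and 5666 in control and 2487, 4041 and 4055 in Bmal1;CKO, groups that did not overlap, with a log2 fold change of -0.79 (SE 0.28). Rdx was the only one of the 7 to pass and the only one without overlap. Across all genes tested, 4.92% were at an unadjusted p under 0.05 by limma-trend and 11.2% did not overlap.

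Of the 9 integrins by which leukocytes bind Icam1, Icam2 and Vcam1, 8 were tested, 3 above and 5 below 0, with a median of -0.13, which was 0.029 without Bmal1;CKO library 5. Itgb1, the shared beta subunit of VLA-4 and of matrix-binding integrins of endothelium itself, also passed before adjustment (log2 fold change -0.88, SE 0.31, unadjusted p = 0.0232, adjusted p = 0.883 by limma-trend). Its counts were 13269, 13767 and 22671 in control and 7127, 7971 and 11591 in Bmal1;CKO, without overlap. Among the 8 tested integrins, the groups did not overlap for 1 that was lower and 1 that was higher in Bmal1;CKO. Across all genes tested, 11.2% did not overlap, and 4.92% were at an unadjusted p under 0.05 by limma-trend. Itgb2, the beta subunit of LFA-1 and Mac-1, was present at 12261, 5582 and 13479 in control and 10340, 13840 and 13616 in Bmal1;CKO. The libraries thus held transcripts of leukocyte integrins, while the 7 neutrophil and lymphocyte markers summed to 1.86 to 33.2 in control and 11.5 to 18.3 in Bmal1;CKO, with Ly6g at 0 in every library.

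Of the 11 selectin ligands and their enzymes, 10 were tested, 7 above and 3 below 0, with a median of 0.35, and 0 passed an unadjusted p of 0.05. That direction rested on the model and on 1 library, since edgeR with either scaling and DESeq2 put 5 above and 5 below 0 with a median of -0.11, and limma-trend without control library 2 gave the same split with a median of 0.066. Selplg, which encodes the leukocyte ligand of the selectins, had counts of 170065, 51391 and 106214 in control and 193073, 144346 and 125464 in Bmal1;CKO, although Sele and Selp were near 0. Its lowest library was control library 2, as for Icam1.

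Of the 18 cytokines, receptors and NF-kB genes that induce Icam1, Vcam1 and Sele, 17 were tested, 15 above and 2 below 0, against 56.6% of all genes above 0. Their median log2 fold change was 0.52, against 0.11 for all genes, and edgeR, DESeq2 and limma-voom gave the same split of 15 and 2. Without control library 1 all 17 were above 0, and without control library 3 the split was 12 and 5. Tnfrsf1b, which encodes TNF receptor 2, passed before adjustment (log2 fold change 1.39, SE 0.51, unadjusted p = 0.0265, adjusted p = 0.883 by limma-trend). It had 1714, 3192 and 7654 in control and 9648, 7742 and 10112 in Bmal1;CKO, with no overlap. Tnfrsf1b was the only one of the 17 to pass and the only one without overlap. Across all genes tested, 4.92% were at an unadjusted p under 0.05 by limma-trend and 11.2% did not overlap. Nfkbia, a feedback target of NF-kB, had 73870, 19475 and 17426 in control and 64164, 60571 and 30352 in Bmal1;CKO, with overlap. The microglia markers, whose sums are given beside Icam1, include no gene of this list, their part in these values was not tested, and several of the 18 genes are expressed by macrophages.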

How the data were processed

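RNA of GFP and tdTomato positive retinal cells, with n = 3 per genotype, went through SMART v4 amplification into Nextera XT libraries. Per the submitters' notes and the methods, the authors used FastQC and Trimmomatic on the reads, Bowtie for alignment to mm10 (GRCm38), and featureCounts for counts per gene. Use of strand in the counting is not given in the sources used here, and Icam1, Vcam1 and Selp share exon bases with antisense genes that held 19 reads or fewer in any library. The deposited signal is the count divided by a DESeq2 size factor. The deposited table also holds the authors' own comparison, which was not used. Its columns number the libraries differently from the sample titles, so that each was used as a replicate of its genotype. No column belonged to other samples (0).

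Division of each column by its smallest step gave whole reads for 100% of values within 0.01. A gene was tested if 3 or more libraries held 10 or more of its reads. The model was limma-trend (limma 3.58.1, R 4.3.3) with genotype alone, on log2 of the normalized count plus 1, and p-values were adjusted over all 20459 genes by the Benjamini-Hochberg method. Fold changes on that scale understate changes of low genes. Recovered reads were tested with edgeR 4.0.16, which called 0 genes, and DESeq2 1.42.0. Only the limma-trend fit was run on simulated counts. These held no differences in cell composition between libraries, so that run does not show how the fit performs under such differences. The methods give n = 3 animals per genotype and speak of biological replicates, while the labels do not tie a library to a single animal. The p-values measure the spread between these samples, of which technical variation may be a part. The upper limit for 0 reads was set at 3 reads and, in amplified libraries, covers counting error only. Coordinates are from GENCODE M21 and promoters from RefSeq.

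The members and the gene lists were chosen with earlier results of these data known. Named are all members, the 3 closest genes to each, genes at an unadjusted p under 0.05 or of the highest level in a list, and Arntl. Exceptions are stated or serve as context. Alternatives were other pseudocounts, filters, scalings and tools, other references, and each library left out. Python 3.11.15, pandas 2.3.3, scipy 1.17.1 and matplotlib 3.10.9 were used.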

Additional observations from a re-analysis of the deposited data

How the results depend on the processing

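No paired analysis was possible because the columns of the groups share no replicate numbers (1 to 3 and 4 to 6). The number of genes called was 67 with DESeq2, 1 with all genes that had a read, 1 with genes of at least 10 reads in every library, and 0 to 6 with a library left out. No member was called under any setting, and the lowest adjusted p of a member was 0.477. With a library left out, the log2 fold change of Pecam1 ranged from -0.99 to -0.24, that of Vcam1 from -1.09 to 0.50, that of Esam from -0.53 to 0.0089 and that of Arntl from -0.49 to 0.029. Of 112 alternative values of members as measured, 4 changed sign, and of 80 relative to marker references, 18 did. Relative to the endothelial markers, the ranges were -0.63 to 0.066 for Pecam1, -0.15 to 0.28 for Esam, -0.35 to 0.32 for Jam2, -0.29 to 0.14 for Icam2 and -1.17 to 0.91 for Vcam1. The number of genes called relative to them was 0 to 52 with a library left out. With the median of these markers Esam was -0.031, and with Cldn5 alone Emcn was 0.027 and Icam2 0.056. Relative to the microglia markers, a reference chosen after seeing the data, Jam2 was -0.58, Esam -0.62 and Vcam1 -0.43. The cause was not tested. With a library left out, the list medians ranged from -0.85 to 2.38 for astrocyte, 0.089 to 0.55 for Müller glia, -1.45 to 1.09 for neutrophil and lymphocyte markers, -0.67 to -0.049 for endothelial, 0.078 to 0.82 for microglia and -1.61 to 2.91 for pericyte markers, -0.39 to -0.081 for junction partners, -0.44 to 0.080 for sialomucins and linkers and -0.25 to 0.029 for leukocyte integrins. Sele and Selp had too few reads for the main test. With all genes that had a read, their log2 fold changes were -2.42 and -1.33 (adjusted p = 0.813 for each by limma-trend).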

Other observations

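Fut7, which encodes the fucosyltransferase that completes selectin ligands on leukocytes, was singled out after its values were seen. It had 0, 42.7 and 195 normalized counts in control libraries 1 to 3 and 494, 390 and 266 in Bmal1;CKO libraries 4 to 6. The groups did not overlap, as they did not for 11.2% of all genes tested, and the fit by limma-trend gave an adjusted p = 0.883 (unadjusted p = 0.0508). Madcam1, an adhesion molecule of mucosal venules that shares integrin ligands with Vcam1, had 0, 223 and 135 in control and 241, 81.2 and 213 in Bmal1;CKO, and the groups overlapped. Both genes were at 0 in control library 1, the library in which Vcam1 was lowest. Sele, another scarce gene, was highest in that library, with 35 reads. Control library 1 was also the library with the fewest genes that had a read (21598, against 22142 to 27904 in the other libraries).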
